A study of Mus musculus with 6 samples.

Results

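The 10 transcripts described here belong to the TGF-beta pathway and its wider family: the ligands Tgfb1, Gdf3 and Gdf15, the TGF-beta1 presenter Nrros, the receptors Tgfbr1 and Tgfbr2, and the signalling proteins Smad2, Smad3, Smad4 and Smad7. They are 10 of the 49585 genes in the count files and were selected on pathway membership with earlier results of the same libraries known. The measured values that chose them are therefore counts of the same contrast that is described below, and their differences between the groups are given as a description. No p-value is given for them, and whether the fit over all genes called them is stated only beside the share of all genes called and supports nothing. RNA of microglia, the macrophages that live in brain tissue, was sequenced in 3 WT libraries and 3 libraries labelled IRF8KO, named for the transcription factor IRF8. All were from male mice aged 3 months, untreated, with cells isolated from the brain without enzymes and sorted by flow cytometry. The labels give the genotype only as WT or IRF8KO. The allele and whether it is absent from all tissues are not given in the sources used here, so loss of IRF8 in microglia and in other cells cannot be told apart.

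TGF-beta1 is made as a latent dimer, wrapped in its own propeptide and tethered to a carrier. In microglia that carrier is NRROS, and integrins release the active ligand. The ligand brings together a type II receptor (TGFBR2) and a type I receptor (TGFBR1), which phosphorylates SMAD2 and SMAD3; these join SMAD4 and enter the nucleus. SMAD7, itself a target of the pathway, feeds back on the type I receptor. This signalling is known to keep adult microglia in their homeostatic state. GDF3 is a distant family member known from early embryos and fat-tissue macrophages, and signals through activin-type receptors with the co-receptor CRIPTO. GDF15 is a stress-induced hormone whose receptor, GFRAL, sits in the hindbrain.

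IRF8 often binds DNA together with PU.1, at elements in which an ETS half-site lies next to an IRF half-site. The sequences upstream of the receptor genes are shown because both receptors had lower levels in IRF8KO. They are the 250 bases before the annotated start, 5′ to 3′ on the gene's strand, from RefSeq on GRCm38.p6; 6 of the 10 genes had an entry, with 8 starts in all. The Tgfbr1 window is chr4:47352972-47353221 on the plus strand and the Tgfbr2 window is chr9:116175364-116175613 on the minus strand. Capitals mark GAGGAA, the core of a PU.1 site.
Tgfbr1: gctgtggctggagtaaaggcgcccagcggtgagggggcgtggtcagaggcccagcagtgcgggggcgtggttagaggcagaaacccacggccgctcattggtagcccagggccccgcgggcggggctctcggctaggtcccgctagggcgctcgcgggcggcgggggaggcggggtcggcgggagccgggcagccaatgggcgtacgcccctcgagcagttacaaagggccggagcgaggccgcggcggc
Tgfbr2: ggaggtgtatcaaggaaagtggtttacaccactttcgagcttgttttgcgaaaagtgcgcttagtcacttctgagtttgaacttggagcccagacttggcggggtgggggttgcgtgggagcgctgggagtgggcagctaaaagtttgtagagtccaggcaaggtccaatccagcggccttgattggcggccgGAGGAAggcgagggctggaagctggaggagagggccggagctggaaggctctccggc

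Each window was searched on both strands for 4 strings of letters: GAAANNGAAA (the core of an interferon-stimulated element), GGAANNGAAA (an ETS-IRF composite, which can overlap the first), GAGGAA and GTCTAGAC (a Smad palindrome). The Tgfbr2 window held GAGGAA at positions −57 to −52, and the Tgfbr1 window shown held none of the 4. GAGGAA was also found upstream of a second annotated start of Tgfbr1 and, at 2 places, of a second start of Gdf15. Neither IRF string nor the Smad palindrome was in any of the 8 windows. Of 32851 mouse promoter windows of the same length, 23.3% held GAGGAA, 2.98% GAAANNGAAA, 2.3% GGAANNGAAA and 0.167% GTCTAGAC, so a GAGGAA is common and the others are rare. A string of letters is not a binding site.

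The libraries held 3658917 to 11098363 gene counts each. Levels are CPM, counts per 1000000 after scaling with edgeR's TMM factors. Calls are genes with a Benjamini-Hochberg adjusted p below 0.05 in edgeR's quasi-likelihood test. The test covered 11041 genes. It called 19.1% of them; 9.64% of all tested genes were higher in IRF8KO and 9.46% were lower. For 37.9% the groups did not overlap. The median log2 fold change over all tested genes was −0.11. It was −0.61 with library size alone, under which 25.4% of the calls were higher against 50.5% with TMM. A single gene, Apoe, took 25.5% to 33.7% of IRF8KO counts and at most 0.324% of WT counts. Irf8 itself was counted in all libraries, at 794.6 to 1403 CPM in WT and 650 to 849.6 CPM in IRF8KO, so counts over the whole gene did not check the genotype. WT replicate 3 stood apart from WT replicates 1 and 2: its differences from them rose with transcript GC content (Spearman correlation 0.615 over 11034 genes, which are not independent replicates and share the library). The 10 microglial markers were all detected and summed to 42780 to 68815 CPM in WT and 28018 to 39520 CPM in IRF8KO; 5 of them were called lower, P2ry12, Cx3cr1, Aif1, Sparc and Gpr34, and none higher. Markers of other cells were present too. The 7 oligodendrocyte markers summed to 284.3 to 697.8 CPM in WT and 479.4 to 684.2 CPM in IRF8KO, with 1 called lower and none higher. The 8 neuronal markers summed to 0.354 to 11.6 CPM in WT and 29.6 to 49.9 CPM in IRF8KO, with 3 of them called higher, and of 7 astrocyte markers 3 were called higher and 1 lower. Their part in the results below was not tested; macrophage, neutrophil and endothelial markers are given beside single results. In bulk samples, fewer cells of a type and less RNA per cell cannot be told apart.

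Of the 10 transcripts, 9 passed the filter on low counts and Gdf15 did not. Gdf3 was called higher, Tgfbr1, Tgfbr2 and Smad7 were called lower, and 5 were not called; the groups did not overlap for Gdf3 (IRF8KO higher), Tgfbr2 and Smad7 (WT higher). Since the choice of genes used this contrast, nothing is read from these counts against the 19.1%, 9.64%, 9.46% and 37.9% of all genes. The median log2 fold change of the 9 was −0.98, beside −0.11 for all genes.

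**Figure D1:**
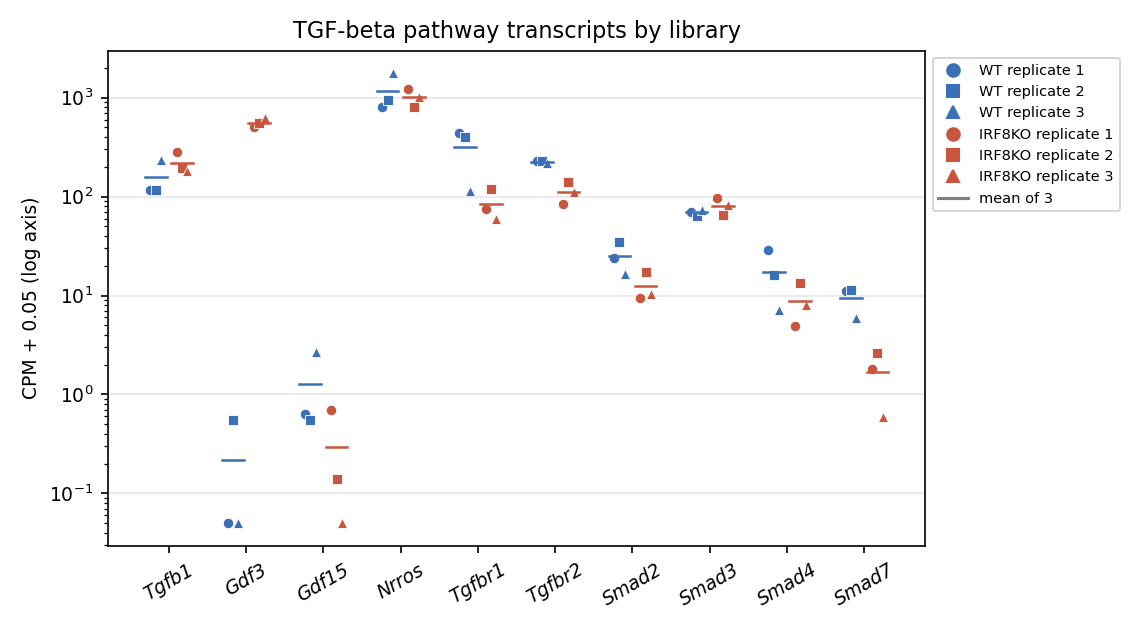
Level of each of the 10 transcripts in each library, in CPM plus 0.05 on a log axis, with WT in blue, IRF8KO in red, 1 symbol per replicate and a bar at the mean of 3. Gdf3 lies at or near the bottom in WT and at 505.0 to 622.9 CPM in IRF8KO, the Tgfbr2 and Smad7 groups are apart, and WT replicate 3 lies next to the IRF8KO libraries for Tgfbr1.

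Gdf3 was the transcript that differed most. Gdf3 (ENSMUSG00000030117, chromosome 6, 122605403 to 122610087, minus strand) had 0, 7 and 0 counts in WT replicates 1, 2 and 3 and 3146, 6137 and 5743 counts in the IRF8KO libraries. Scaled, these were 0, 0.496 and 0 CPM against 505.0, 550.7 and 622.9 CPM, or 0.165 ± 0.286 and 559.5 ± 59.4 CPM (SD, n = 3 each). The gene was thus near absent from each WT library and abundant in each IRF8KO library, with a narrow spread. The ratio of summed scaled counts was 2140, with an exact 95% interval of 1039 to 5325 that covers counting error only. The fitted log2 fold change was 11.07 (SE 0.65) and lay between 10.25 and 15.09 under the alternatives that tested it. It was 15.09 without WT replicate 2, which holds all 7 WT counts, so its size depends on those counts and on the prior count of the fit.

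The neighbours of Gdf3 described here did not share its pattern. Among protein-coding genes within 100 kb, Mfap5, Dppa3 and Nanog had 0 counts in all 6 libraries. Apobec1 encodes the cytidine deaminase that edits apolipoprotein B mRNA and lies 2959 bases away on the same strand (chromosome 6, 122577792 to 122602444). Apobec1 was at 31.3, 41.3 and 19.6 CPM in WT and at 71.4, 109.8 and 79.7 CPM in IRF8KO, with the groups apart. It rose, with a log2 difference of 1.50 (SE 0.33; adjusted p = 0.00881, edgeR quasi-likelihood test with Benjamini-Hochberg adjustment), and with library size alone the difference was 0.98 and was not called (edgeR adjusted p = 0.137). Its difference was thus far smaller than that of Gdf3, and the pluripotency genes Dppa3 and Nanog that share the locus were not detected.

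Transcripts for the type I receptors and co-receptor of GDF3 were scarce, and those of the type II receptors differed in level. These genes are named for that role, outside the naming rule, with their values known. Acvr1c, a type I receptor, had 1 count in all 6 libraries, and Tdgf1, the gene for CRIPTO, had 0, which allows up to 3 counts over all of them. Acvr1b, the other activin type I receptor, averaged 2.37 ± 0.618 CPM (SD, n = 3) in WT and 2.98 ± 1.93 CPM in IRF8KO. Its log2 fold change of 0.35 (SE 0.71) did not pass (adjusted p = 0.766, edgeR quasi-likelihood test with Benjamini-Hochberg adjustment). The type II receptor Acvr2a, described with the receptor list below, was at 5.4 ± 3.24 and 0.831 ± 0.25 CPM, and Acvr2b was at 41.9 ± 8.1 and 34.8 ± 1.64 CPM (log2 fold change −0.27, SE 0.28; adjusted p = 0.544, edgeR).

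Likeness to Gdf3 was measured as the Pearson correlation of log2 CPM, with a prior count of 2, over the 6 libraries. It was taken among the 6173 tested genes whose mean reached 10 CPM. The 5 highest were Ywhaq, Emilin2, Cox6a2, Rxrg and Hacd4, with correlations of 0.9998, 0.9979, 0.9978, 0.9976 and 0.9972. The 6 points fall into the 2 genotype groups, and 298 genes had a correlation above 0.95, so a high value mostly reflects the difference between the groups. All 5 genes, like Gdf3, had their highest WT value in WT replicate 2, which held all 7 WT counts of Gdf3. The part of those counts in the order of the genes was not tested. Ywhaq, which encodes the 14-3-3 protein theta, was first with means only 1.57-fold apart, 29.3 ± 1.31 and 46.1 ± 0.185 CPM (SD, n = 3), and its difference did not pass (adjusted p = 0.103, edgeR; 0.0268 with the GC offset and 0.0439 without WT replicate 3). Emilin2, an extracellular glycoprotein gene, had a pattern of presence and absence nearer to that of Gdf3, with 0, 2 and 0 counts in WT and 645, 833 and 777 in IRF8KO. Rxrg, a retinoid X receptor gene, was at 0.528 ± 0.344 CPM in WT and 46.7 ± 8.9 CPM in IRF8KO.

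Border-associated macrophages of the meninges and vessels, another brain macrophage, could share a sort gate with microglia. Their 11 marker genes summed to 609.1 to 833.9 CPM in WT and 3707 to 4911 CPM in IRF8KO. Stab1 alone was at 602, 650.8 and 823 CPM in WT and at 2308, 1767 and 1775 CPM in IRF8KO. The WT sums were thus almost all Stab1, and the IRF8KO sums mostly Stab1 and Pf4. Of the 11, 9 were detected, and all 7 that were tested were called higher in IRF8KO, beside 9.64% of all tested genes. Cd163 and F13a1 were at 0 in WT and passed the filter on low counts only through IRF8KO, so this count was in part fixed by the filter. Lyve1 and Cd209f were at 0 in all libraries, Folr2 was at most 0.276 CPM and Clec10a at most 1.19 CPM. Cd163 was at 7.48 to 12.5 CPM in IRF8KO. Pf4, a chemokine gene and one of these markers, was at 0.778, 1.98 and 2.62 CPM in WT and at 1937, 1536 and 2171 CPM in IRF8KO, and Mrc1, which encodes the mannose receptor, was at 24.6, 60.8 and 32.5 CPM in IRF8KO. Pf4, like Gdf3, was highest in IRF8KO replicate 3, and Mrc1 was highest in IRF8KO replicate 2. The part of these cells in the Gdf3 level was not tested.

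Tgfb1 encodes the ligand TGF-beta1 (ENSMUSG00000002603, chromosome 7, 25687002 to 25705077, plus strand). Its level was 117.5, 115.5 and 236.8 CPM in WT and 282.5, 192.6 and 179.7 CPM in IRF8KO. The groups overlapped through WT replicate 3, which was above IRF8KO replicates 2 and 3. Means were 156.6 ± 69.5 and 218.3 ± 56 CPM (SD, n = 3), with a log2 fold change of 0.48 (SE 0.35). This was 0.93 without WT replicate 3 and 0.03 with library size alone. The transcripts of the other isoforms were nearly absent: Tgfb2 had 4 counts in all 6 libraries, and Tgfb3 had 22 counts, all in IRF8KO replicates 1 and 3.

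Nrros, which tethers latent TGF-beta1 on microglia, had the highest mean per kb of exon of the 10 in both groups (ENSMUSG00000052384, chromosome 16, 32142785 to 32165594, minus strand). It was at 799.6, 938.5 and 1767 CPM in WT and at 1233, 803.4 and 1027 CPM in IRF8KO. The highest and the lowest library were both WT, and the IRF8KO libraries lay between them. Means were 1168 ± 523 and 1021 ± 215 CPM (SD, n = 3), and the log2 fold change was −0.19 (SE 0.37). It turned to 0.26 without WT replicate 3 and was −0.65 with library size alone, where Nrros was called lower, so no direction is given. Lrrc32, which presents latent TGF-beta1 on other cells, had 13 counts in all, 10 of them in IRF8KO replicate 2.

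Gdf15 was close to the detection limit (ENSMUSG00000038508, chromosome 8, 70629393 to 70632456, minus strand). It had 3, 7 and 19 counts in WT and 4, 1 and 0 counts in IRF8KO, or 0.584, 0.496 and 2.62 CPM against 0.642, 0.0897 and 0 CPM. WT replicate 3 held 19 of the 29 WT counts, and IRF8KO replicate 1 lay above WT replicates 1 and 2. The WT to IRF8KO ratio of summed scaled counts was 5.82, with an exact 95% interval of 2.23 to 19.3 for counting error only. Gfral, its receptor gene, had 0 counts in all libraries.

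Tgfbr1, the type I receptor, had a lower mean in IRF8KO but overlapping groups (ENSMUSG00000007613, chromosome 4, 47353222 to 47414931, plus strand). Its level was 439.5, 405 and 113.5 CPM in WT and 74.3, 120.2 and 59.9 CPM in IRF8KO. WT replicates 1 and 2 were high, and WT replicate 3 was below IRF8KO replicate 2. Means were 319.3 ± 179 and 84.8 ± 31.5 CPM (SD, n = 3), 3.77-fold higher in WT, with a log2 fold change of −1.91 (SE 0.47). Against WT replicates 1 and 2 the IRF8KO mean was lower by a log2 difference of −2.37, and against WT replicate 3 by −0.48. The Tgfbr1 transcript had the lowest GC content of the 10, 41% beside a median of 50.08% over all genes, and was lower in WT replicate 3 than in the other WT libraries by a log2 difference of −1.89. With a GC offset the fold change was −1.06, and it stayed negative in all 17 alternatives.

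Tgfbr2, the type II receptor, was lower in every IRF8KO library and differed least among WT libraries (ENSMUSG00000032440, chromosome 9, 116084293 to 116175360, minus strand). It was at 227, 227.7 and 220.4 CPM in WT and at 84.9, 139.5 and 111.4 CPM in IRF8KO, with no overlap. The means of 225.1 ± 4.03 and 111.9 ± 27.3 CPM (SD, n = 3) differed by a log2 fold change of −1.01 (SE 0.28). WT replicate 3 was near the other WT libraries here (log2 difference −0.04), and Tgfbr2 has a GC content of 49.64%, close to the median. The IRF8KO mean was lower by −1.05 against WT replicates 1 and 2 and by −1.01 against WT replicate 3. Over the 17 alternatives its log2 fold change lay between −1.47 and −0.83.

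**Figure D2:**
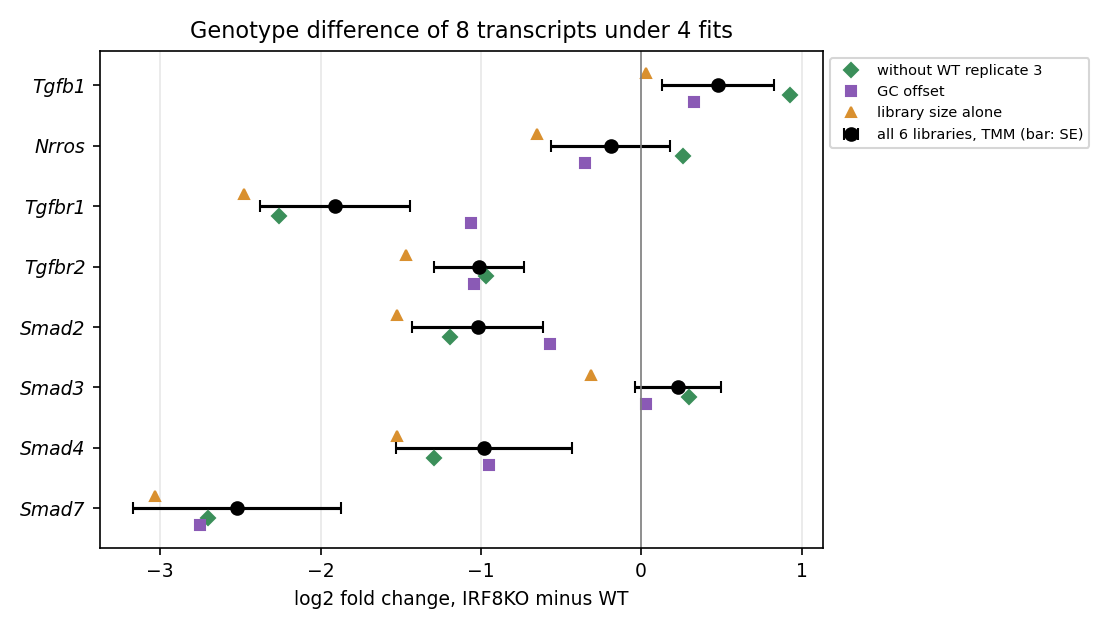
Log2 fold change, IRF8KO minus WT, of 8 transcripts (Gdf3 and the untested Gdf15 left out) with all 6 libraries and TMM scaling (black, bar: SE), without WT replicate 3, with a GC offset and with library size alone. Tgfbr2 and Smad7 stay below −0.83 in each, Tgfbr1 moves from −2.48 to −1.06, and the sign of Nrros and Smad3 depends on the fit.

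Smad2 and Smad3, the receptor-activated Smads of this branch, had log2 fold changes of opposite sign. Smad2 (ENSMUSG00000024563, chromosome 18, 76241580 to 76310963, plus strand) was at 23.9, 35 and 16.4 CPM in WT and at 9.31, 17.3 and 10.4 CPM in IRF8KO, and WT replicate 3 fell below IRF8KO replicate 2. Its means were 25.1 ± 9.34 and 12.3 ± 4.34 CPM (SD, n = 3), with a log2 fold change of −1.02 (SE 0.41) that was −0.57 with a GC offset. Smad3 (ENSMUSG00000032402, chromosome 9, 63646767 to 63757994, minus strand) was at 69.7, 64.4 and 73.9 CPM in WT and at 95.8, 65.1 and 82.2 CPM in IRF8KO. The groups overlapped, since IRF8KO replicate 2 lay within the WT range, with means of 69.3 ± 4.77 and 81 ± 15.4 CPM (SD, n = 3). Its fitted log2 fold change, 0.23 (SE 0.27), became −0.31 with library size alone. The difference between Smad2 and Smad3 was not tested.

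Smad4, the shared partner, had overlapping groups (ENSMUSG00000024515, chromosome 18, 73639009 to 73703780, minus strand). It was at 28.8, 16.1 and 7.03 CPM in WT and at 4.82, 13.3 and 7.92 CPM in IRF8KO. WT replicate 3 was below IRF8KO replicates 2 and 3. Means were 17.3 ± 10.9 and 8.67 ± 4.28 CPM (SD, n = 3), and the log2 fold change of −0.98 (SE 0.55) was −0.43 without WT replicate 1, the highest library.

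Smad7, the inhibitory Smad, had the lowest mean per kb of exon of the 4 Smads in both groups, and the log2 fold change farthest from 0 (ENSMUSG00000025880, chromosome 18, 75367529 to 75395935, plus strand). Its level was 11.1, 11.4 and 5.93 CPM in WT and 1.77, 2.6 and 0.542 CPM in IRF8KO. The IRF8KO values rest on 11, 29 and 5 counts. Each WT library was above each IRF8KO library, WT replicate 3 included. The means of 9.47 ± 3.07 and 1.64 ± 1.04 CPM (SD, n = 3) gave a log2 fold change of −2.52 (SE 0.65), and its range over the alternatives that tested it was −3.06 to −2.08. Its GC content was 56.9%, above the median, and WT replicate 3 was lower than the other WT libraries by a log2 difference of −0.90.

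**Figure D3:**
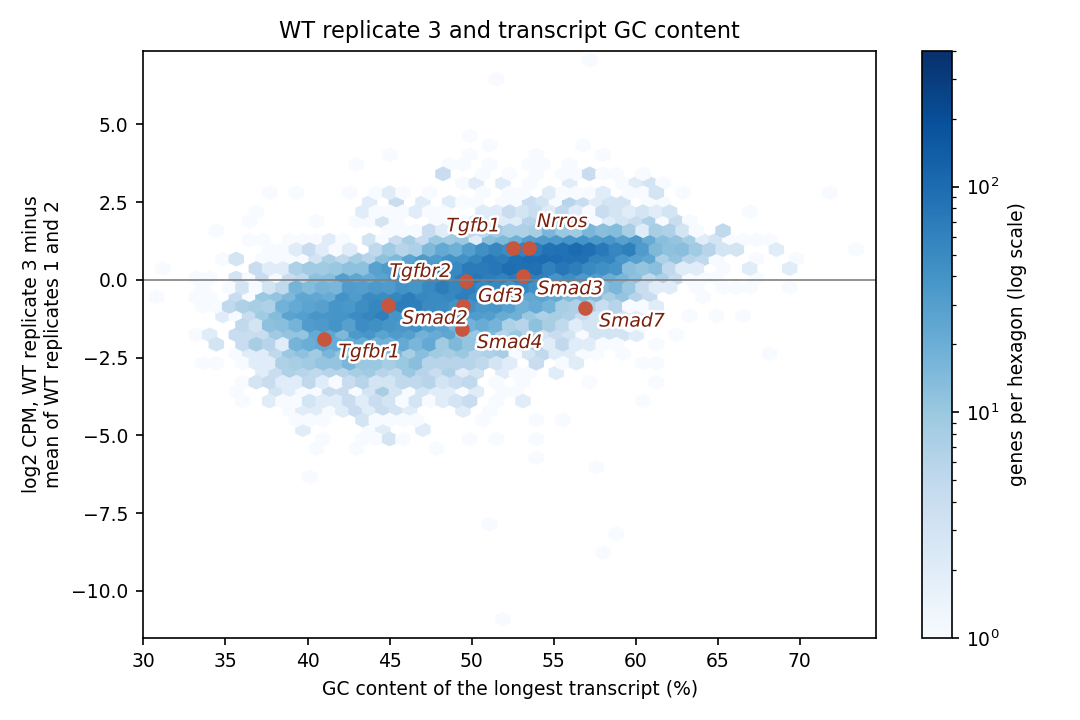
Log2 CPM difference of WT replicate 3 from the mean of WT replicates 1 and 2 against the GC content of each gene's longest transcript, as a density over 11034 genes, with the 9 tested pathway transcripts in red. Tgfbr1 (41%, −1.89) lies at the low end and Tgfb1 (52.51%, 1.02) and Nrros (53.48%, 1.03) at the upper side, while Tgfbr2 (49.64%, −0.04) lies on the zero line; the position of Gdf3, with 0 counts in WT replicate 3, rests on the prior count.

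WT replicate 3 set much of the spread in WT. It was higher than WT replicates 1 and 2 for Tgfb1 and Nrros, by log2 differences of 1.02 and 1.03, and lower for Tgfbr1, Smad4, Smad7 and Smad2, by −1.89, −1.59, −0.90 and −0.81. Set against WT replicate 3 alone, the IRF8KO mean was lower for Smad7 (−1.92), Tgfbr2 (−1.01), Nrros (−0.81), Tgfbr1 (−0.48) and Smad2 (−0.46), and was within 0.18 for Tgfb1, Smad3 and Smad4. Across all genes the genotype difference also had a correlation with GC content (Spearman 0.276 over 11034 genes). The part of GC content in the differences of single genes was not tested. The number of the 10 that were called was 5 with library size alone, which added Nrros (2559 of 11041 genes called), and 2, Tgfbr1 and Tgfbr2, of the 7 that had at least 10 counts in every library (1863 of 7873 genes called). It also moved with the libraries used: 6 were called without WT replicate 3, which added Tgfb1 and Smad2, in a fit that called 4003 of 11953 genes. Gdf3 and Tgfbr1 were called without WT replicate 1 or 2, where 1308 of 11523 and 1171 of 11209 genes were. Of the 10, only Gdf3 was called without IRF8KO replicate 1 or 3, where 1147 of 11902 and 910 of 11440 genes were.

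Levels can be compared between genes only per length, here as CPM per kb of exon. In WT, Nrros stood highest at 279.7 (range 191.4 to 423 CPM per kb), followed by Tgfbr1 at 48.9, Tgfb1 at 31.1 and Tgfbr2 at 27.5, whose libraries overlapped. Smad3 followed at 12.5, and then Smad4, Smad2, Smad7 and Gdf15 at 4.67, 2.86, 2.1 and 0.666, neighbours that overlapped in turn. Gdf3 was last, at 0.0682 CPM per kb. In IRF8KO, Gdf3 was at 230.9 (208.4 to 257.1) CPM per kb and overlapped Nrros at 244.4 (192.3 to 295.1). Tgfb1 at 43.3 stood above Smad3, Tgfbr2 and Tgfbr1, which overlapped at 14.6, 13.7 and 13 CPM per kb. Tgfb1 overlapped both receptors in WT and lay above both, without overlap, in IRF8KO.

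The rest of the pathway was followed in 6 lists of 122 other genes, of which 85 were detected and 54 tested. Of the 54, 9 rose, 9 fell and 36 did not pass, so that 33.3% were called beside 19.1% of all genes; the median log2 fold change was −0.19. With library size alone, 8 rose and 13 fell, in a fit that called 651 of 11041 genes higher and 1908 lower. The calls went both ways in 3 of the 6 lists, and 13 of the 18, 8 higher and 5 lower, were called whichever single library was left out. The counts of each list below stand beside the same 19.1% of all genes called, 9.64% higher and 9.46% lower. With so few tested genes in a list, nothing is read from its share.

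**Figure D4:**
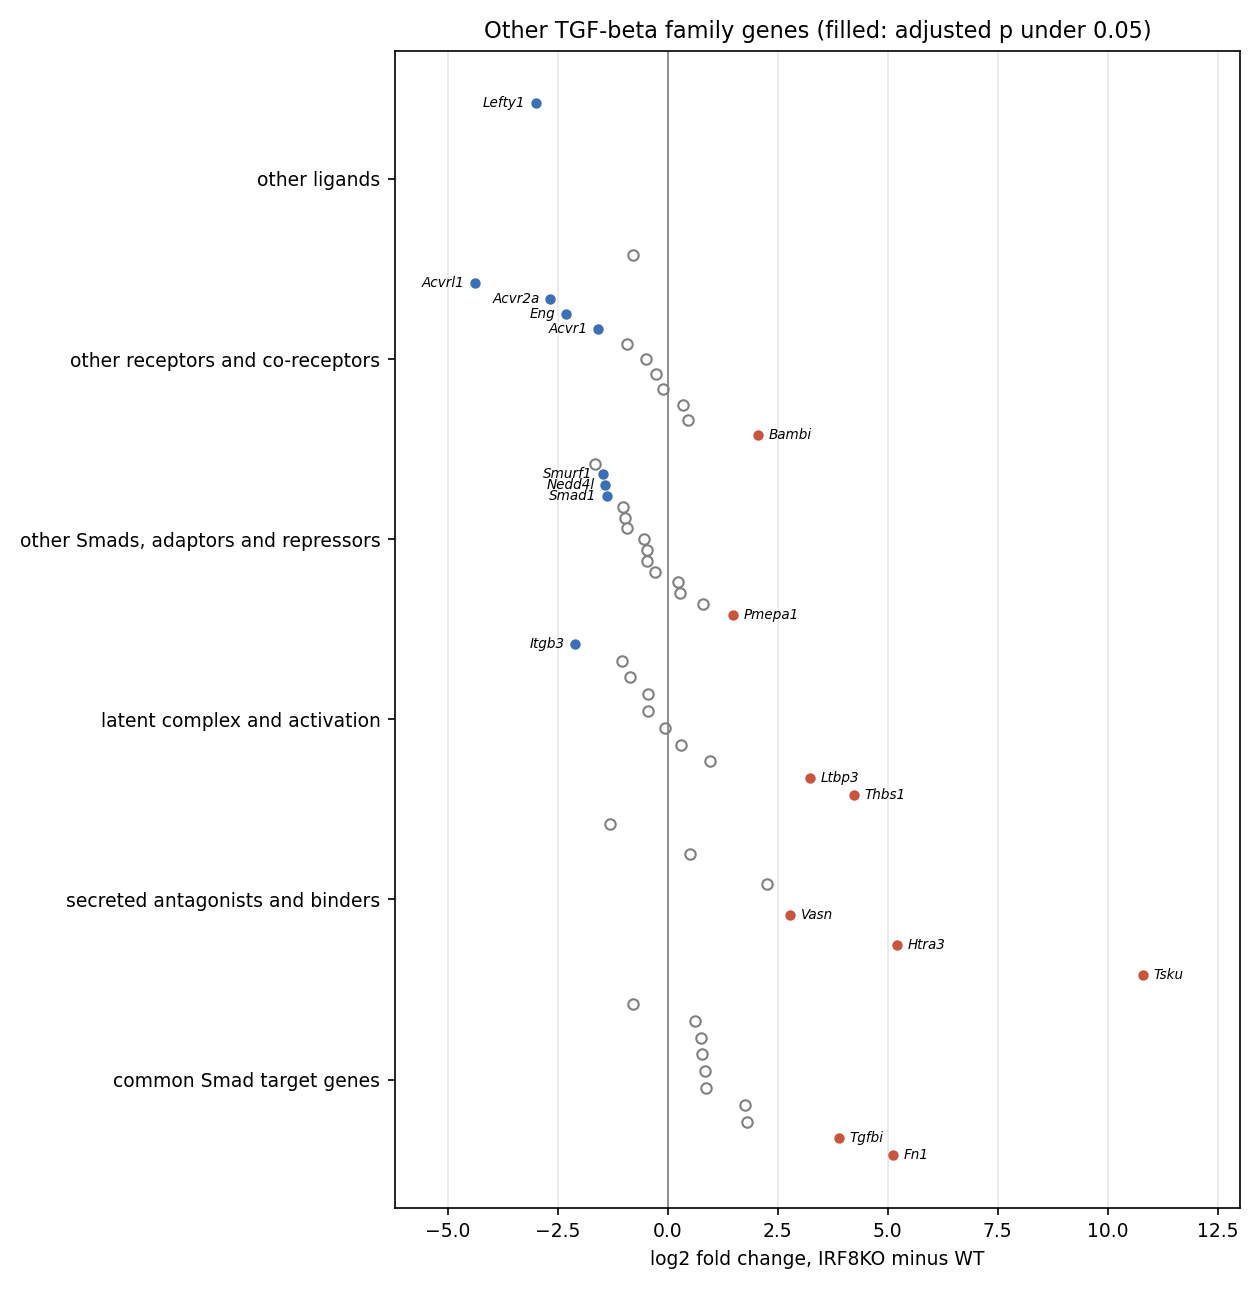
Log2 fold change, IRF8KO minus WT, of the 54 tested genes of 6 other TGF-beta family lists, with called genes filled and named (blue lower, red higher) and the others open. Called receptors lie mostly to the left, from −4.39 for Acvrl1 to 2.05 for Bambi, while the called secreted antagonists and Smad targets lie to the right; Tsku, with 0 counts in WT, is drawn at its fitted value, which is no bound.

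Of 30 other ligands, 11 were detected and 2 tested. Lefty1, an antagonist of Nodal signalling, fell from 20, 23.2 and 38.6 CPM to 2.73, 2.33 and 5.1 CPM, 8.06-fold (log2 fold change −3.00, SE 0.47; adjusted p = 0.00106, edgeR quasi-likelihood test with Benjamini-Hochberg adjustment). All WT libraries were above all IRF8KO libraries. Its close copy Lefty2 was at 0 counts, and reads that fit both may not have been counted. Gdf9, known from oocytes, was at 7.14 ± 1.69 and 4.17 ± 2.75 CPM (SD, n = 3) and did not pass (adjusted p = 0.403, edgeR).

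Among 20 other receptors and co-receptors, 11 were tested; 4 fell, 1 rose and 6 did not pass. Acvrl1, the type I receptor ALK1, was at 69.5, 77.6 and 124.2 CPM in WT and at 2.41, 4.13 and 6.18 CPM in IRF8KO, 21.3-fold lower (log2 fold change −4.39, SE 0.41; adjusted p = 3.7e-05, edgeR quasi-likelihood test with Benjamini-Hochberg adjustment). Eng, which encodes the co-receptor endoglin that works with ALK1, fell from 102.9, 96.9 and 196.3 CPM to 35.8, 21.3 and 22.6 CPM (log2 fold change −2.32, SE 0.36; adjusted p = 0.00107, edgeR). Both genes are best known from endothelium. The endothelial and mural markers summed to 18.6 to 30.4 CPM in WT and 8.99 to 12.5 CPM in IRF8KO; Pecam1 fell from 17.9, 21 and 18.3 CPM to 0.963, 1.53 and 3.36 CPM (adjusted p = 0.00143, edgeR). Cldn5 was at 1.56, 0 and 0 CPM in WT, and Cdh5 was at most 0.389 CPM. Kdr, another defining marker, was at 0.276 to 9.13 CPM in WT and at most 0.269 CPM in IRF8KO. Other markers of the list lay the other way: Flt1 was at 0 in WT and at 0.802, 7.9 and 6.4 CPM in IRF8KO, and Pdgfrb, a mural marker, was at 0.973, 0.0708 and 0 CPM against 7.22, 1.53 and 0.108 CPM and did not pass (adjusted p = 0.144, edgeR). The part of endothelial RNA in the results for Acvrl1 and Eng was not tested.

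Bambi, a decoy receptor that lacks a kinase, was the receptor that rose, from 5.45, 6.23 and 4.83 CPM to 25.2, 24.4 and 19 CPM (log2 fold change 2.05, SE 0.38; adjusted p = 0.00346, edgeR quasi-likelihood test with Benjamini-Hochberg adjustment). Acvr2a, a type II activin receptor, fell from 5.4 ± 3.24 to 0.831 ± 0.25 CPM (SD, n = 3; log2 fold change −2.67, SE 0.74; adjusted p = 0.0256, edgeR). It had only 6, 11 and 5 counts in the IRF8KO libraries. Acvr1, the type I receptor ALK2, fell from 8.73 ± 1.34 to 2.9 ± 0.571 CPM (log2 fold change −1.59, SE 0.50; adjusted p = 0.0458, edgeR). Rgmb, a BMP co-receptor, was at 89.9 ± 15.3 and 82.6 ± 5.56 CPM and did not pass (adjusted p = 0.782, edgeR).

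Of 19 other Smads, adaptors and repressors, 15 were tested; 1 rose, 3 fell and 11 did not pass. Pmepa1, a membrane protein that takes SMAD2 and SMAD3 from the receptor and is itself a TGF-beta target, rose from 87, 78.1 and 103.9 CPM to 199, 290.7 and 259.1 CPM (log2 fold change 1.48, SE 0.28; adjusted p = 0.00389, edgeR quasi-likelihood test with Benjamini-Hochberg adjustment). Smurf1, a ubiquitin ligase for Smads and receptors, fell from 106.4, 96.1 and 128.5 CPM to 50.7, 33.7 and 34.9 CPM (log2 fold change −1.47, SE 0.29; adjusted p = 0.00425, edgeR). Smad1, of the BMP branch, fell from 44.6 ± 14.1 to 17 ± 4.58 CPM (SD, n = 3; adjusted p = 0.0171, edgeR), and Nedd4l, another ubiquitin ligase of the pathway, from 13.7 ± 1.84 to 5.04 ± 0.201 CPM (adjusted p = 0.0344, edgeR). The repressor Ski, at 98.3 ± 15.5 and 115.8 ± 16.8 CPM, and Tgif1, at 35.5 ± 5.6 and 43.2 ± 8.57 CPM, did not pass (adjusted p = 0.576 and 0.538, edgeR). Thus Pmepa1 and Smad7, both known as feedback inhibitors, differed in opposite directions.

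In the list of 18 genes for the latent complex and its activation, 10 were tested; 2 rose, 1 fell and 7 did not pass. Thbs1, which encodes thrombospondin 1, an activator of latent TGF-beta, rose from 7.78, 7.36 and 2.9 CPM to 104.5, 168 and 68.2 CPM (log2 fold change 4.24, SE 0.46; adjusted p = 1.0e-04, edgeR quasi-likelihood test with Benjamini-Hochberg adjustment). IRF8KO replicate 2, its highest library, also held most of the neutrophil marker signal (323.2 CPM summed, against at most 2.41 in any other library), and the log2 fold change of Thbs1 was 3.85 without that library. Ltbp3, a latent TGF-beta binding protein, rose from 3.31, 1.84 and 6.07 CPM to 56.7, 20.5 and 27.4 CPM (log2 fold change 3.24, SE 0.54; adjusted p = 0.00176, edgeR). With the counts of 1 strand alone its log2 fold change was 1.48 or 1.23, so its size depends on the count used; without WT replicate 3 it was 3.83. Itgb3, an integrin subunit, fell from 79, 67 and 99.1 CPM to 19.3, 24.1 and 13.8 CPM (log2 fold change −2.10, SE 0.31; adjusted p = 8.6e-04, edgeR). Itgb5, another integrin subunit, was at 7568 ± 4353 and 4136 ± 1232 CPM, and Furin, which cleaves the TGF-beta1 precursor, at 98.4 ± 32.6 and 71.8 ± 14.3 CPM; neither passed (adjusted p = 0.196 and 0.325, edgeR). Both were called lower with library size alone (0.011 and 0.0119) and with the GC offset (0.0251 and 0.0499, adjusted p by edgeR), while the log2 fold change of Itgb5 moved from −0.87 to −0.26 without WT replicate 3. Itgb8, the integrin subunit known to work with NRROS, had 1 count in all 6 libraries.

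Of 19 secreted antagonists and binders, 6 were tested, of which 3 rose and 3 did not pass. Of the 3, Tsku and Vasn had so few counts in WT that they passed the filter on low counts only through IRF8KO. The direction of their calls was thus fixed by the filter. Htra3, a secreted protease that binds TGF-beta family ligands, rose from 29.2, 22.2 and 98.2 CPM to 2317, 1632 and 1634 CPM, 37.3-fold (log2 fold change 5.22, SE 0.59; adjusted p = 1.2e-04, edgeR quasi-likelihood test with Benjamini-Hochberg adjustment). Without WT replicate 3, the highest WT library, the log2 fold change of Htra3 was 6.22. Tsku, a secreted binder of BMPs and TGF-beta, had 0 counts in all WT libraries and 143, 300 and 236 in IRF8KO, at least 225.7-fold higher against a floor of 3 counts over the group (adjusted p = 2.7e-05, edgeR). Vasn, a TGF-beta trap, rose from 0.321 ± 0.113 to 2.35 ± 0.367 CPM (SD, n = 3; adjusted p = 0.0416, edgeR) on 9 counts in WT and 64 in IRF8KO. Dand5 and Htra1, another secreted protease gene, did not pass (adjusted p = 0.418 and 0.133, edgeR). Htra1 was at 0.389, 0.0708 and 4 CPM in WT and at 8.51, 5.65 and 6.94 CPM in IRF8KO, and without WT replicate 3 its log2 fold change was 5.25 in place of 2.26 and was called (adjusted p = 0.00147, edgeR). It was also called with limma-voom and with no low-count filter (adjusted p = 0.0218 and 0.0295, the second by edgeR).

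Of 16 common Smad target genes, 10 were tested; 2 rose, none fell and 8 did not pass, a share called that is close to the 19.1% of all genes. Tgfbi, an extracellular matrix protein named for its induction by TGF-beta, rose from 36, 48.6 and 50.5 CPM to 786.5, 571.7 and 667.3 CPM, 15-fold (log2 fold change 3.90, SE 0.32; adjusted p = 1.3e-05, edgeR quasi-likelihood test with Benjamini-Hochberg adjustment). Fn1, which encodes fibronectin, had 2 counts in WT and 81 in IRF8KO, and the ratio of scaled counts was 40.4 (exact 95% interval 10.8 to 339.1, counting error only; adjusted p = 0.00665, edgeR). Fn1 thus passed the filter on low counts only through IRF8KO, which fixed the direction of its call. Id2, a transcriptional regulator, was at 38.4 ± 24.2 and 59.1 ± 3.25 CPM, and Hmox1, which encodes heme oxygenase, at 58.9 ± 4.88 and 34.3 ± 18.3 CPM; neither passed (adjusted p = 0.353 and 0.15, edgeR). Id2 was called higher with the GC offset (0.0217), and Hmox1 lower with library size alone (0.0156), with the GC offset (0.0439) and without IRF8KO replicate 1 (0.0442, adjusted p by edgeR). Fn1 is also on the list of 8 monocyte markers and the only one of them that passed the filter on low counts; these summed to 0.584, 1.49 and 0.414 CPM in WT and to 4.33, 45.9 and 1.84 CPM in IRF8KO. The part of other macrophages and monocytes in the levels of Tgfbi and Fn1 was not tested.

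The remaining 5 of the 18 calls were lost in at least 1 fit that left out a single library. Without WT replicate 1 the adjusted p in the same edgeR test was 0.173 for Acvr1, 0.186 for Acvr2a, 0.0765 for Smad1, 0.136 for Nedd4l and 0.173 for Vasn. Without WT replicate 2 it was 0.137 for Acvr1, 0.0551 for Smad1, 0.118 for Nedd4l and 0.157 for Vasn. Without IRF8KO replicate 1 the edgeR value was 0.0994 for Acvr1, 0.0686 for Acvr2a, 0.0863 for Smad1, 0.0999 for Nedd4l and 0.0907 for Vasn. Without IRF8KO replicate 2 it was 0.111 for Acvr1, 0.0509 for Acvr2a, 0.0665 for Nedd4l and 0.0962 for Vasn. Without IRF8KO replicate 3 it was 0.121 for Acvr1, 0.116 for Acvr2a, 0.0839 for Smad1, 0.115 for Nedd4l and 0.153 for Vasn. Fold changes in these fits kept their direction and most of their size: log2 values were −1.67 to −1.42 for Acvr1, −2.82 to −2.08 for Acvr2a, −1.40 to −1.18 for Smad1, −1.45 to −1.36 for Nedd4l and 2.57 to 2.92 for Vasn. Other settings also ended calls. With no low-count filter the edgeR adjusted p was 0.0754 for Acvr1, 0.0566 for Nedd4l and 0.102 for Vasn. The third count column gave 0.0806 for Acvr1 and 0.0519 for Nedd4l, and leaving out Apoe gave 0.0516 for Acvr1 (edgeR). Acvr2a was at 0.0561 with limma-voom and 0.0563 with the GC offset, and Vasn at 0.0665 with limma-voom and 0.059 with library size alone (adjusted p).

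Microglial genes that are known to fall or rise when TGF-beta signalling is lost were listed separately. These lists share genes with lists already read in these libraries and give no independent evidence of a direction. Of 20 genes that signalling sustains, 13 fell, 1 rose and 6 did not pass, beside 9.46% of all tested genes lower and 9.64% higher. The median log2 fold change was −1.51, against −0.11 for all genes. Over both microglial lists 14 genes fell with all libraries and 8 without IRF8KO replicate 3. Over all genes, 1045 of 11041 were called lower with all libraries and 386 of 11440 without IRF8KO replicate 3. Sall1, a transcription factor of microglial identity, was at 143.4, 127.2 and 51 CPM in WT and at 0 counts in each IRF8KO library, which made it at least 970.8-fold lower against a floor of 3 counts over the group (adjusted p = 1.3e-05, edgeR quasi-likelihood test with Benjamini-Hochberg adjustment). Adgrg1, an adhesion receptor gene, fell 19.6-fold from 2739 ± 1164 to 139.5 ± 30.7 CPM (SD, n = 3; adjusted p = 4.4e-05, edgeR), Slc2a5, a fructose transporter gene, fell 7.69-fold and P2ry13, a purine receptor gene, 5.75-fold (adjusted p = 2.2e-04 and 6.7e-04, edgeR). Tmem119 and Csf1r, the growth factor receptor, did not pass (adjusted p = 0.116 and 0.338, edgeR). With library size alone and with the GC offset they were called lower, Tmem119 at 0.00138 and 0.00382 and Csf1r at 0.00395 and 0.0321 (adjusted p, edgeR), and Tmem119 was also called with DESeq2 (adjusted p = 0.0326). The exception, Fcrls, rose 2.54-fold (adjusted p = 0.022, edgeR); it was chosen for naming after its value was seen, and the call was lost without WT replicate 1 or 2 or IRF8KO replicate 1 or 3 (0.1, 0.105, 0.0951 and 0.101 in the same edgeR test).

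Of 18 genes that signalling restrains, 17 were tested; 8 rose, 1 fell and 8 did not pass, beside the same 9.64% and 9.46% of all genes, with a median of 0.89. Those with the smallest p were Ms4a7, a border macrophage marker, from 0.923 ± 0.267 to 412.8 ± 147 CPM, and Cst7, the gene for cystatin F, from 7.3 ± 0.528 to 328.8 ± 82.4 CPM (SD, n = 3; adjusted p = 1.1e-06 and 2.1e-06, edgeR quasi-likelihood test with Benjamini-Hochberg adjustment). Apoe, the apolipoprotein E gene, rose from 2104 ± 1255 to 357729 ± 120301 CPM, 170-fold (adjusted p = 6.4e-05, edgeR; log2 fold change 7.41, and 8.03 without WT replicate 3). Ms4a7 and Mrc1 belong also to the border macrophage list described beside Gdf3. Cd68, a lysosomal protein gene, and Cd74, the invariant chain gene, did not pass (adjusted p = 0.713 and 0.826, edgeR). Axl, a receptor for dying cells, fell 2.83-fold (adjusted p = 0.0202, edgeR), also named after its value was seen; without IRF8KO replicates 1, 2 or 3 the same test gave 0.0561, 0.0631 and 0.121.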

How the data were processed

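Polyadenylated RNA of sorted microglia was sequenced after SMART-Seq v4 amplification and Nextera XT tagging, per the labels' protocols; these libraries carry no strand mark and no molecular identifiers. The deposited files are the authors' raw counts for each gene, laid out as STAR writes them: 4 summary lines, kept out of all totals, then a count that ignores strand and a pair of counts by strand. The submitters' processing notes name mm10, bcl2fastq, STAR 2.5.2b, Picard 2.17.11, Subread and featureCounts, without roles; annotation release and trimming are not given in the sources used here. Between 49.84% and 50.34% of stranded counts were on the first strand, and the analysis took the count that ignores strand.

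Of 49585 identifiers, 49326 matched GENCODE release M21 (GRCm38), the source of symbols and positions. Counts were fitted with edgeR 4.0.16 in R 4.3.3 (default filter with a minimum count of 10, TMM, quasi-likelihood test with genotype as the single term, Benjamini-Hochberg over 11041 genes, called under 0.05). Standard errors of log2 fold changes came from the F statistic. The fit was also run on counts simulated from the mean levels with known fold changes. These held no GC trend like that of WT replicate 3, so they do not check the fit under that trend. Alternatives used limma 3.58.1 and DESeq2 1.42.0, other scalings, filters and count columns, a replicate block, each library left out, and a GC offset that was added after the data were seen. Labels speak of isolation brain by brain but name no animals, so p-values measure the spread between these libraries. Intervals and floors cover counting error only.

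The members and lists were chosen with earlier results of these data known. Named in the text are all 10 members; of each list the called genes, at most the 4 with the smallest p, and the 2 most abundant tested genes that were not called; the protein-coding genes within 100 kb of Gdf3, of which 1 is not reported here; and the 5 genes most correlated with it. Exceptions (Acvr1, Acvr1b, Acvr1c, Tdgf1, Gfral, Itgb8, Lrrc32, Tgfb2, Tgfb3, Lefty2, Fcrls, Axl and the cell markers) were named with their values known.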

Additional observations from a re-analysis of the deposited data

How the results depend on the processing

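Over 17 alternatives, the genes called in the fit with all libraries and named by the rule (Acvr1, Fcrls, Axl and cell markers not among them) kept their direction wherever they were tested. The count of called genes over all genes was 2109; it was 2559 with library size alone, 2692 with DESeq2 and 2743 with the GC offset, and leaving out 1 library gave 910 to 4003. Family genes called higher numbered 8 to 12 and lower 5 to 12 with 1 library left out, and microglial genes 8 to 12 and 8 to 15. At least 10 counts in every library left 6 family genes higher, in a fit that called 878 of 7873 genes higher. Replicate numbers showed no clear pairing of the samples: correlations of same-numbered deviations were −0.26, 0.328 and 0.114. WT replicates 1 and 2 gave nearly the same values against each IRF8KO library, such as 0.349 and 0.328 for IRF8KO replicate 2. The check therefore cannot exclude a pairing. The replicate block gave 2353 calls, 9 family genes higher and 8 lower, 10 and 14 microglial genes, and the same 4 of the 10 pathway transcripts. With the block, Acvr1, Nedd4l and Vasn were not called (edgeR adjusted p = 0.0686, 0.0532 and 0.0896) and Htra1 was (log2 fold change 3.36, edgeR adjusted p = 0.016). Depth limits Gdf15, Vasn, Fn1, the WT level of Gdf3 and the IRF8KO levels of Smad7 and Acvr2a, which rest on few counts.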
